A study of Mus musculus with 30 samples.

Results

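The response of fetal liver to 10 mg/kg/day of PFOS was set against the response of fetal lung, gene by gene, as the difference of the 2 changes. The contrast takes the liver change (10 minus 0 mg/kg/day) and subtracts the lung change (10 minus 0 mg/kg/day), so a positive value means a larger rise or a smaller fall in liver. It used 20 of the 30 arrays of the study, 5 each of unexposed liver, exposed liver, unexposed lung and exposed lung, and all 45037 probe sets that are no control of the array maker. PFOS, perfluorooctane sulfonate, is a persistent fluorinated surfactant, given here as the potassium salt by gavage in 0.5% Tween 20 to pregnant mice of the outbred CD-1 stock on gestation days 1 to 17. Unexposed dams are labelled 0 mg/kg/day. Liver and lung were taken on gestation day 18, each array holds RNA of 1 litter, and 3 fetuses were collected per litter. A replicate is therefore a litter, and the tissues are mixtures of cells in which fewer cells of a type and less RNA per cell cannot be told apart.

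Genes were then sorted by their level in lung. A gene counted as above the threshold in a tissue when it exceeded the 40th percentile of its array on 5 or more of that tissue's 10 arrays, a level of 4.18 to 4.23 on the liver arrays and 4.16 to 4.22 on the lung arrays (log2 scale). Of 18193 genes, 12082 were above it in both tissues, 974 in liver alone, 634 in lung alone and 4503 in neither. This sorting sets genes with little or no signal in lung apart from genes that passed a low threshold in lung but answered in liver. A gene just above the threshold may still have little signal. All values below are log2 levels or log2 differences of n = 5 litters per group, a gene is taken from its brightest probe set, and adjusted p-values are limma's, with the Benjamini-Hochberg method over all probe sets.

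PPARα, the product of Ppara, is a nuclear receptor that binds fatty acids and a number of fluorinated chemicals, pairs with the retinoid receptor RXRα and raises transcription of genes for fatty acid transport and oxidation. It is abundant in hepatocytes, where its targets include peroxisomal and mitochondrial beta-oxidation enzymes, the Cyp4a omega-hydroxylases and acyl-CoA thioesterases. Fetal lung near term is known for surfactant production and the thinning of its airspace walls.

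The arrays matched their labelled tissue. Lung epithelium genes had a mean level of 9.97 to 10.3 on the lung arrays and 5.02 to 5.49 on the liver arrays, and hepatocyte genes 12.6 to 12.8 on the liver arrays. Lung arrays also carried hepatocyte transcripts. All 18 hepatocyte genes were above the threshold on every lung array, at a mean level of 7.46 to 9.17 in unexposed and 7.0 to 8.67 in exposed lung. Alb, serum albumin, ran from 11.22 to 13.11 over the 10 lung arrays. The part of such transcripts in the lung level of other liver genes was not tested. On liver arrays, 14 of 21 lung epithelium genes were above the threshold in all 5 unexposed litters, and 14 in all 5 exposed ones. A level above it therefore does not show that a tissue's own cells express a gene. Unexposed liver litters 2, 3 and 5 stood apart by Cym, the stomach protease chymosin, at 11.27, 9.50 and 8.20 against 3.67 to 5.53 on the other 17 arrays. Without them 161 genes had a higher and 58 a lower called difference, and genes named below that lost their call are given with that value. Leaving out 3 of the 5 unexposed livers also lowers precision, so a lost call alone does not mean a smaller difference.

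A called difference between the responses was found for 357 genes, 1.96% of those tested. It was higher in liver for 225 genes (1.24%) and lower for 132 (0.726%). The liver change was called for 1141 genes (6.27%), 605 up (3.33%) and 536 down (2.95%), and the lung change for 9 genes (0.0495%), of which 7 rose (0.0385%) and 2 fell (0.0110%). Without adjustment, 914 genes had a lung p under 0.05. Of the 357 genes with a called difference, 343 had a called liver change, which is 30.1% of the liver calls. The median change over all genes was -0.013 in liver and 0.0095 in lung.

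**Figure D1:**
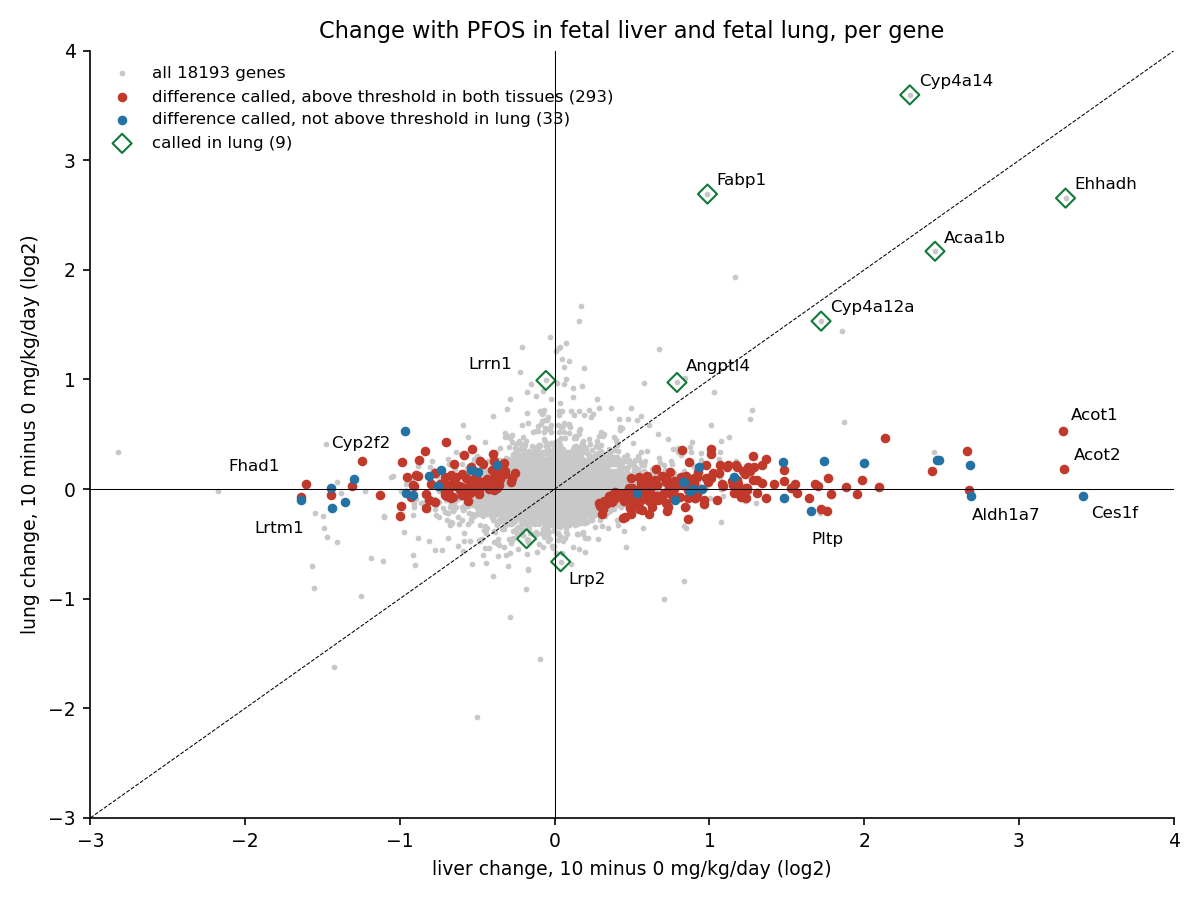
Each point is a gene, with its change in liver on the horizontal axis and its change in lung on the vertical axis (log2, means of 5 litters per group), and the dashed line marks equal change. Genes with a called difference lie along the horizontal axis (293 above the threshold in both tissues, 33 not above it in lung), while the 5 genes called in both tissues (open diamonds on the right) sit near the dashed line, Cyp4a14 above it.

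Genes with a called liver change and little signal in lung were the smaller class. Of the 357 genes, 33 were called in liver, above the threshold in liver and not above it in lung, 19 of them higher in liver and 14 lower. For 7 of the 33, liver was above the threshold through 1 group, with at most 1 array of the other group above it, so these had to differ and their sizes are set against a level near background. The 33 were 3.39% of the 974 genes above the threshold in liver alone, 1.95% higher and 1.44% lower. Without unexposed liver litters 2, 3 and 5 there were 17 such genes. Carboxylesterases, enzymes that cleave ester bonds of lipids and drugs, led the class.

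Ces1f, a carboxylesterase, had levels of 4.72, 4.31, 4.87, 4.40 and 5.96 in the unexposed liver litters and 8.54, 7.59, 8.58, 8.86 and 7.74 in the exposed ones. In lung it read 4.61, 3.80, 3.58, 3.70 and 4.01 without PFOS and 4.04, 4.10, 4.01, 3.72 and 3.53 with it. All exposed livers lay above all unexposed livers, a separation that 6.96% of all genes had in one direction or the other, and the lung litters overlapped at a level near or under the threshold. The liver change was 3.41 (SE 0.28), or 10.7-fold, the lung change -0.06 (95% interval -0.64 to 0.51), and the difference 3.48 (SE 0.39, adjusted p = 1.47e-05). The gene was low in unexposed liver as well, and lung minus liver went from -0.91 without PFOS to -4.38 with it. Its relatives Ces1g and Ces1e showed the same arrangement, with differences of 2.76 (adjusted p = 0.00482) and 2.47 (adjusted p = 1.33e-05) and mean levels of 2.98 and 3.34 in unexposed lung. Ces1 genes lie in 1 cluster of close copies, and probes shared between them could spread a change of one over the others.

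Acot4, a peroxisomal acyl-CoA thioesterase that frees fatty acids from coenzyme A, ran from 6.15 to 6.81 in unexposed and from 8.58 to 9.30 in exposed liver. In lung it stayed between 2.91 and 3.88 over all 10 litters. The liver change was 2.47 (SE 0.16) and the difference 2.20 (SE 0.22, adjusted p = 4.32e-06). Its second probe set gave a difference of 2.08.

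Outside lipid metabolism, Cxcl10, an interferon-induced chemokine, rose in liver by 2.48, with a lung change of 0.26 (95% interval -0.26 to 0.78) and a difference of 2.22 (adjusted p = 0.00106). Slc7a9, a subunit of a cystine and basic amino acid transporter, rose by 1.66, and the kinase Sgk2 by 2.00, with differences of 1.86 (adjusted p = 3.75e-07) and 1.76 (adjusted p = 0.00108). Slc7a9 was above the threshold in 1 of 5 unexposed and 5 of 5 exposed livers, so its rise starts from a level near background. Nr1i2 encodes PXR, a receptor for foreign chemicals that controls drug-metabolising enzymes. It rose by 0.83 from a mean of 6.11 in liver, against 3.32 in unexposed lung, and its difference of 0.77 (adjusted p = 0.0339) lost its call on leaving out any of 13 of the 20 arrays (and without unexposed liver litters 2, 3 and 5, adjusted p = 0.244).

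Among the 14 genes lower in liver was Lrtm1, a leucine-rich repeat membrane protein, with a difference of -1.54 (SE 0.18, adjusted p = 1.98e-05). It went from 4.92 to 5.60 in unexposed liver down to 3.39 to 3.92 in exposed liver, beside a lung range of 2.97 to 3.52. Only its 5 unexposed livers were above the threshold, so the size of its fall is uncertain. Acnat2, an enzyme that joins fatty acids to amino acids, had a difference of -1.45, and Hsd3b2, a steroid dehydrogenase, of -1.23 (adjusted p = 0.0051 and 0.00265). Without unexposed liver litters 2, 3 and 5 the call of Acnat2 was lost (adjusted p = 0.088). Abcg5 codes for a subunit of the transporter that exports sterols into bile. Its difference was -0.94 (adjusted p = 0.0324), a call lost on leaving out any of 11 of the 20 arrays and without those 3 litters (-0.48, adjusted p = 0.329). RMA shrinks changes at dim probe sets, and a lung change in these 33 genes could be understated. The same holds for genes just above the threshold in lung. For 23 of the 33 genes the 95% interval of the lung change lay within 0.5 of 0.

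**Figure D2:**
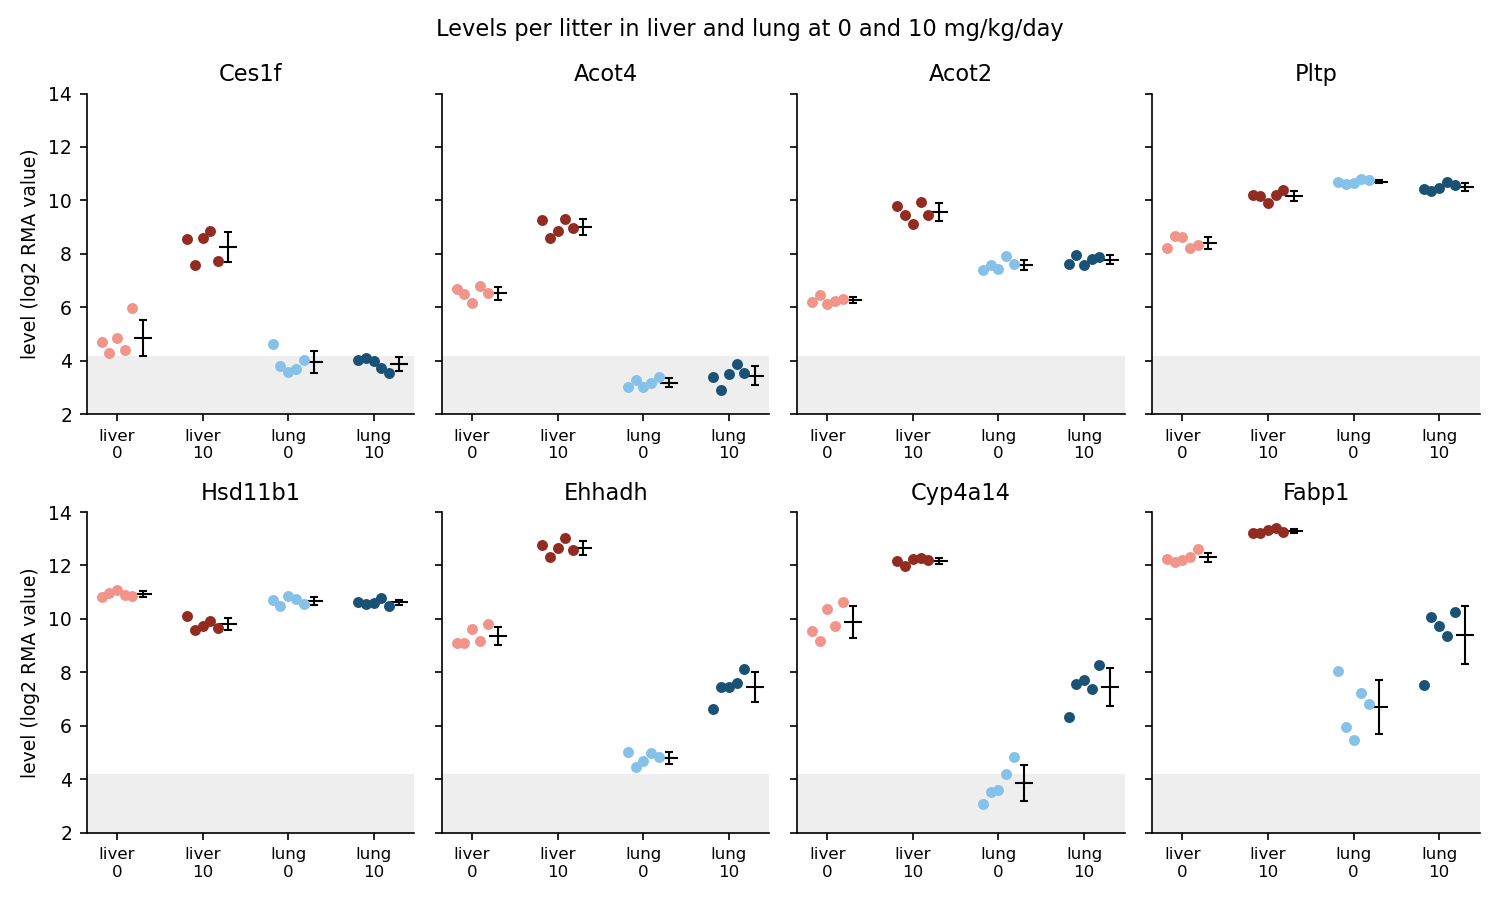
Log2 level of 8 genes in each of 5 litters per group, with the group mean and SD as black bars and, in grey, levels under the lung threshold. Ces1f and Acot4 rise in liver and stay at or near the grey zone in lung, Acot2 and Pltp rise in liver and Hsd11b1 falls there while their lung litters overlap, and Ehhadh, Cyp4a14 and Fabp1 are higher in exposed lung, in all litters of Ehhadh and Cyp4a14.

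Far more genes were above the threshold in both tissues and answered in liver. Of the 357 genes, 293 were called in liver, not called in lung and above the threshold in both, 191 higher in liver and 102 lower. There were 175 without unexposed liver litters 2, 3 and 5. Among all 12082 genes above the threshold in both tissues, 2.48% had a called difference, 1.59% higher and 0.894% lower. In the 293 genes the median size of the change was 0.67 in liver and 0.07 in lung, and the 95% interval of the lung change lay within 0.5 of 0 for 274. The lung change had the same sign as the liver change in 124 of them. Lung litters at 0 and 10 mg/kg/day overlapped for 182 of the 191 and 98 of the 102 genes, while over all genes 1.15% had lung litters that did not overlap. Because the 293 were chosen in part for a lung change that was not called, these counts describe them and support nothing further.

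Levels in the 2 tissues before exposure varied in this class. Unexposed lung had a higher mean than unexposed liver for 79 of the 191 genes that were higher in liver and for 38 of the 102 that were lower, beside 49.9% of all genes above the threshold in both tissues. The unexposed means lay within 0.5 of each other for 57 and 31 genes, beside 47.1% of all genes above the threshold in both tissues.

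Acot2, the mitochondrial acyl-CoA thioesterase, was brighter in lung than in liver before exposure. Unexposed livers read 6.21, 6.45, 6.12, 6.25 and 6.33 and exposed livers 9.81, 9.45, 9.14, 9.95 and 9.47, while unexposed lungs read 7.41, 7.58, 7.44, 7.91 and 7.61 and exposed lungs 7.62, 7.97, 7.58, 7.80 and 7.88. The liver groups were far apart and the lung groups overlapped. Its liver change was 3.29 (SE 0.13), or 9.79-fold, its lung change 0.18 (95% interval -0.08 to 0.45), and the difference 3.11 (SE 0.18, adjusted p = 3.64e-09), the largest of the genes above the threshold in both tissues. The order of the tissues thus turned, with lung minus liver at 1.32 without PFOS and -1.79 with it.

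Acot1, its cytosolic relative, followed with a liver change of 3.28 and a difference of 2.75 (SE 0.23, adjusted p = 2.47e-07). Its lung litters ran from 7.68 to 8.37 without and from 8.41 to 8.71 with PFOS and did not overlap, at a lung change of 0.53 (95% interval 0.20 to 0.87, adjusted p = 0.772). Acot3, a peroxisomal member, had a liver change of 2.66 and a lung change of 0.35 (95% interval 0.10 to 0.59), with a difference of 2.32 (adjusted p = 4.77e-08). The Acot genes are near copies in a cluster, and their probe sets may share transcripts.

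Aldh1a7 and Aldh1a1, close relatives among the aldehyde dehydrogenases that oxidise retinal and other aldehydes, were well above liver levels in lung. Aldh1a7 ran from 5.77 to 7.49 in unexposed liver, from 8.78 to 9.47 in exposed liver and from 9.29 to 9.70 over all lung litters. With PFOS its liver level thus approached that of lung, and the difference was 2.68 (SE 0.33, adjusted p = 3.8e-05). For Aldh1a1 the difference was 1.87 (SE 0.36, adjusted p = 0.0059), with a lung change of 0.02.

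Pltp, which transfers phospholipids between lipoproteins, is another gene with more signal in lung. It read 8.22, 8.68, 8.64, 8.21 and 8.33 in unexposed and 10.20, 10.18, 9.89, 10.20 and 10.40 in exposed liver, against 10.70, 10.62, 10.67, 10.78 and 10.76 in unexposed and 10.43, 10.36, 10.46, 10.70 and 10.59 in exposed lung. Exposed lung lay below the unexposed lung mean in all 5 litters, with overlap, and its change was -0.20 (95% interval -0.41 to 0.01). The difference was 1.96 (SE 0.14, adjusted p = 6.53e-08). Vldlr, a receptor for triglyceride-rich lipoproteins, had a mean of 9.91 in unexposed lung and 6.66 in unexposed liver, and rose by 1.24 in liver with a lung change of -0.01.

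**Figure D3:**
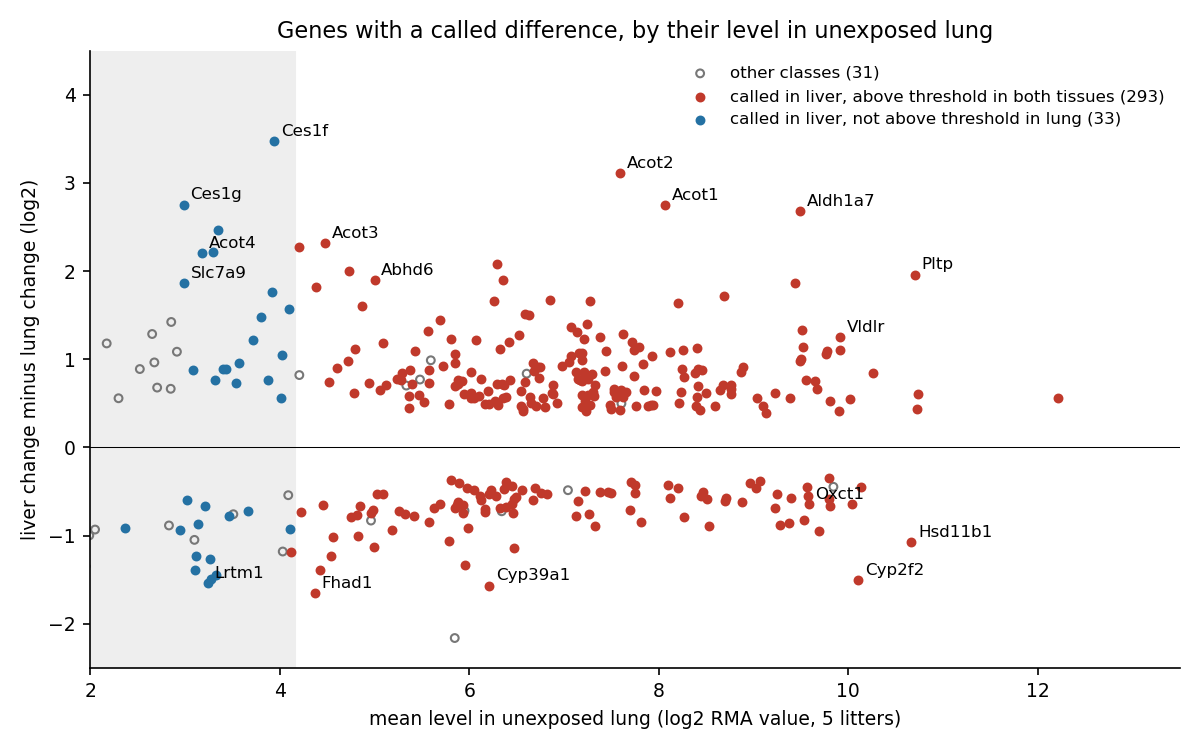
Each point is a gene with a called difference, placed by its mean level in unexposed lung (horizontal, log2) and by the liver change minus the lung change (vertical, log2), with levels under the lung threshold in grey. Differences of more than 1 occur at all lung levels up to that of Pltp, at 10.7, and not only in the grey zone that holds Ces1f, Ces1g and Acot4.

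The pathway lists give the same genes by role. Of 26 matched genes of peroxisomal beta-oxidation, which shortens long fatty acids, 8 had a higher and none a lower called difference, beside 1.24% and 0.726% of all genes. These shares of all genes are also the background of the lists below. The list's median change was 0.49 in liver and 0.08 in lung, and 24 of its genes were above the threshold in both tissues. In lung, 2 of the 26 were called higher, beside 0.0385% of all genes. Without adjustment 7 of them had a limma lung p under 0.05, beside 914 of all 18193 genes. Abcd3, which carries acyl-CoA into peroxisomes, read 9.51 to 9.92 in unexposed and 10.85 to 11.08 in exposed liver, and 9.41 to 9.66 over all lung litters. Its unexposed levels were close in the 2 tissues, the liver change was 1.30, and the lung change -0.03 (95% interval -0.19 to 0.12). Crot, a peroxisomal carnitine acyltransferase, and Hsd17b4, the second multifunctional enzyme of the pathway, had differences of 1.22 and 0.80 (adjusted p = 7.8e-05 and 0.000658). Of 16 genes of peroxisome biogenesis 5 had a higher difference, with Pex11a, which drives peroxisome division, at 1.40 (adjusted p = 4.79e-05). Of 9 omega-oxidation genes 1 had a higher difference (11.1%), and 2 were called higher in lung.

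The carnitine shuttle brings fatty acids into mitochondria, and 4 of its 8 genes had a higher difference: Crot, Cpt2 (1.10), the carnitine transporter Slc22a5 (0.78) and the carnitine carrier Slc25a20 (0.65, adjusted p = 0.0226, and 0.0912 without unexposed liver litters 2, 3 and 5). The call of Slc25a20 was also lost with the replicate number as a block (adjusted p = 0.083), without unexposed liver litter 2 (0.0501) and without unexposed lung litter 4 (0.0512). For Slc25a20 the lung litters did not overlap, at 7.34 to 7.72 without and 7.74 to 8.18 with PFOS, a lung change of 0.36 (adjusted p = 0.65). Of 20 mitochondrial beta-oxidation genes, 6 had a higher difference, among them Acot2, the enoyl-CoA isomerase Eci1 (1.09, adjusted p = 0.000394) and the dienoyl-CoA reductase Decr1 (0.85, adjusted p = 1.41e-05). None was called in lung, yet 19 of the 20 had a positive lung change, and the list's median lung change was 0.24 against 0.43 in liver. Cardiac muscle genes also had positive lung changes, all 20 of them, with a median of 0.72. Their mean level ran from 6.18 to 8.54 in unexposed and from 7.08 to 9.68 in exposed lung. With the cardiac level as a covariate the median lung change of the mitochondrial list was 0.18. Without adjustment 12 of the 20 mitochondrial genes had a limma lung p under 0.05, beside 914 of all 18193 genes. With the cardiac covariate 9 of the 20 did. The source of these lung changes was not tested.

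Of lipid droplet and fatty acid handling genes, 11 of 36 had a higher difference (30.6%) and none a lower one, all 11 above the threshold in both tissues. Plin2, a coat protein of lipid droplets, ran from 9.88 to 10.05 in unexposed and from 10.95 to 11.32 in exposed liver, against 9.43 to 9.65 over all lung litters, with a difference of 1.14 (SE 0.11, adjusted p = 2.1e-06). G0s2 and Hilpda, both inhibitors of the lipase that empties droplets, had differences of 1.72 and 1.67, and in each the unexposed lung mean was above that of liver. Pdk4, a kinase that turns pyruvate dehydrogenase off, rose by 2.13 in liver, had a lung change of 0.47 (95% interval 0.07 to 0.88, adjusted p = 0.999) with overlapping litters, and a difference of 1.66 (adjusted p = 0.00154). The pantetheinase Vnn1 had a difference of 1.63 (adjusted p = 0.00148).

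Of 20 cholesterol synthesis and uptake genes 15 were called higher in liver, beside 3.33% of all genes. A called difference was found for 3 (15%), all higher, beside 1.24% of all genes. These were Lss (0.92), Hsd17b7 (0.76) and Cyp51 (0.61, adjusted p = 0.0446), all enzymes after squalene. The dimmer probe sets of Lss (0.36 and 0.71) and of Cyp51 (0.61 and 0.41) had no called difference. Among those of Hsd17b7 (0.71, 1.10 and 0.78) only 1.10 was called (adjusted p = 0.000477). Cyp51 lost its call without any of 16 of the 20 arrays and under 3 other settings. The list's median change was 0.53 in liver and 0.10 in lung. Of 23 fatty acid and triglyceride synthesis genes 5 had a higher difference (21.7%). Malic enzyme, Me1, which supplies NADPH, started at 7.23 in liver and 7.28 in lung, and rose by 1.76 in liver with a lung change of 0.10 (95% interval -0.18 to 0.39). Gpam, the acyltransferase of the first step of triglyceride synthesis, started at 10.33 and 10.26 and had a difference of 0.84 (adjusted p = 8.9e-05).

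Among drug metabolism genes 5 of 39 had a higher difference, including Aldh1a1, Aldh1a7 and the epoxide hydrolase Ephx1 (1.31, adjusted p = 6.64e-05). Carboxylesterases had 4 of 10, of which Ces1d, with a mean of 9.78 in unexposed lung and 10.04 in unexposed liver, was the only one above the threshold in both tissues (difference 1.09, adjusted p = 0.000211). Among the largest single differences outside these lists were the galectin Lgals2 (2.27), the ubiquitin ligase Rnf186 (2.08), the water and glycerol channel Aqp3 (2.00), the lipase Abhd6 (1.90) and the leptin receptor Lepr (1.90). The other probe set of Lgals2 gave only 0.86 (adjusted p = 0.000669). Its brighter one had lung means of 4.20 without and 4.36 with PFOS, with 6 of 10 lung arrays above the threshold. For Rnf186 and Lepr, unexposed lung had the higher level, by 0.92 and 1.28.

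**Figure D4:**
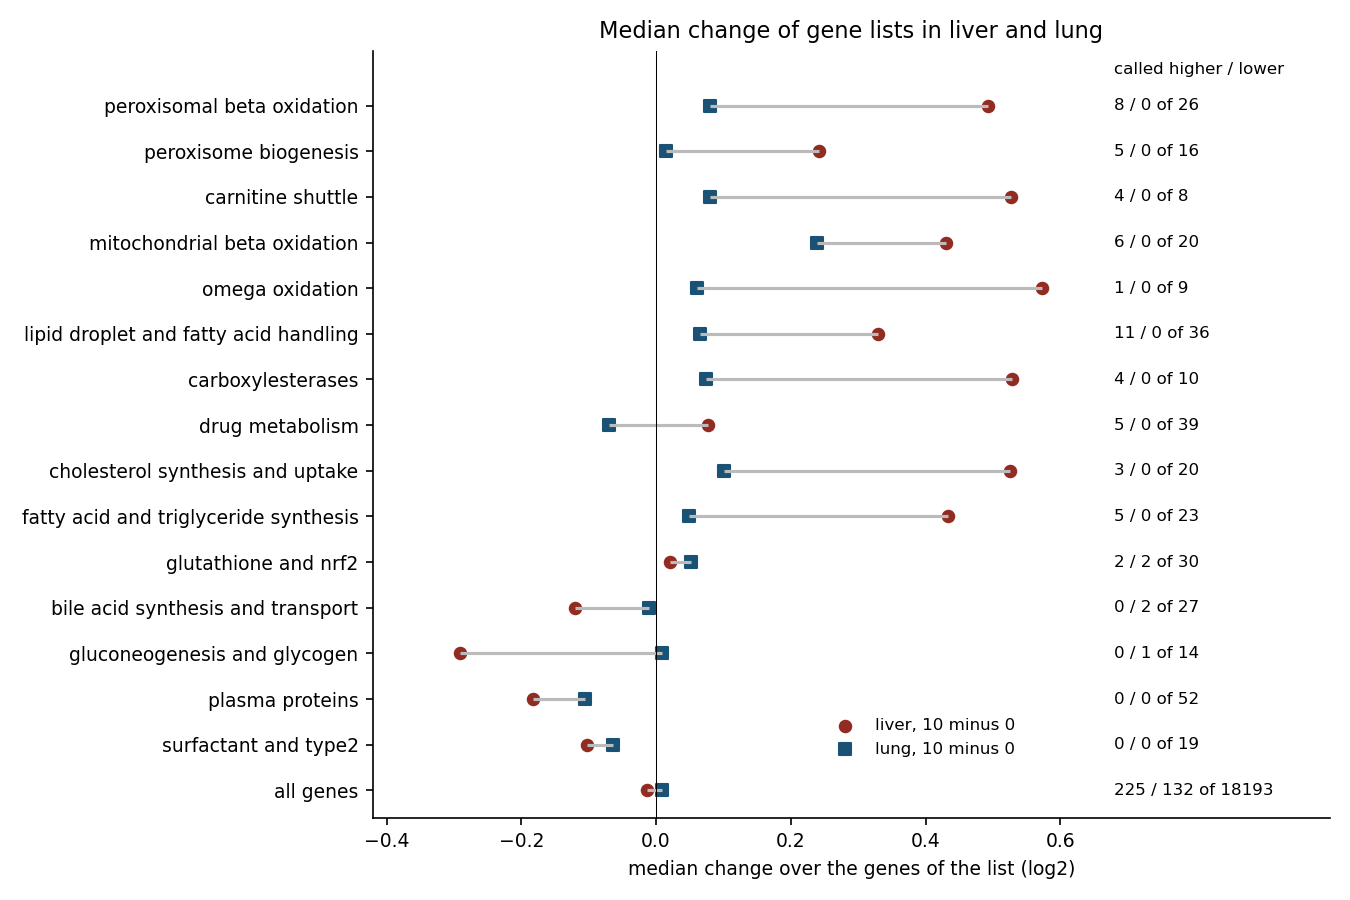
Median change with PFOS over the genes of each list in liver (circles) and lung (squares), log2, with the number of genes whose difference was called higher or lower in liver at the right. Peroxisome biogenesis, oxidation, carnitine shuttle, droplet and synthesis lists lie at 0.24 to 0.57 in liver and at 0.01 to 0.24 in lung. The plasma protein and surfactant lists hold no called difference.

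Among the 102 genes with a lower difference and signal in both tissues was Hsd11b1, which regenerates active glucocorticoid. It was level in the 2 tissues before exposure, at 10.83 to 11.09 in liver and 10.47 to 10.84 in lung. It fell by 1.13 in liver, where exposed litters ran from 9.59 to 10.12, while exposed lungs stayed at 10.48 to 10.79, and the difference was -1.07 (SE 0.13, adjusted p = 5.28e-05). Cyp39a1, an oxysterol hydroxylase of bile acid synthesis, had a difference of -1.57 (adjusted p = 4.36e-05) and was 1 of 2 lower genes of 27 in its list, with Abcg5. Slc37a4 carries glucose 6-phosphate to its phosphatase and had a difference of -0.74 (adjusted p = 0.000631). It was the only gene with a called difference of 14 in gluconeogenesis and glycogen. Of the 14, 4 were called lower in liver, beside 2.95% of all genes.

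Cyp2f2, a cytochrome P450 of club cells in the airway that liver also carries, read 9.73, 9.72, 9.71, 9.21 and 9.49 in unexposed and 8.14, 8.53, 8.52, 7.82 and 8.63 in exposed liver. In lung it read 10.14, 10.07, 10.07, 10.09 and 10.16 without and 10.54, 10.09, 10.43, 10.59 and 10.16 with PFOS. All exposed livers were lower than all unexposed livers, and lungs overlapped with a change of 0.26 (95% interval -0.03 to 0.54). The difference was -1.50 (SE 0.19, adjusted p = 7.97e-05). Gsta4, a glutathione transferase that clears lipid aldehydes, fell by 0.58 in liver, and its lung litters were higher with PFOS without overlap, at 8.41 to 8.60 against 8.70 to 9.05 (lung change 0.31, adjusted p = 0.815, difference -0.89). Further lower genes were Fhad1 (-1.65), Enho, the precursor of the hepatokine adropin (-1.34), Fst, the activin inhibitor follistatin (-1.18), the interleukin 6 receptor Il6ra (-1.14), and Oxct1, the enzyme that uses ketone bodies (-0.64). The dimmer probe set of Il6ra gave -0.43 (adjusted p = 0.289). Those of Enho gave -1.45, -0.10 and -0.43, of which only -1.45 was called.

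A further 663 genes were called in liver and above the threshold in both tissues but had no called difference. Their liver changes were smaller, with a median size of 0.39, and the median SE of a difference was 0.13 against 0.09 for a liver change. The lung change was called for 4 of them, which are Ehhadh, Cyp4a14, Acaa1b and Angptl4. For the other 659 a liver-only response can be neither stated nor denied at 5 litters per group. Among all liver-called genes above the threshold in both tissues 30.6% had a called difference, and 32.0% of those above it in liver alone.

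A small set rose in both tissues. Of the 9 genes called in lung, 5 were called in liver too, which is 55.6% of the lung calls and 0.438% of the liver calls, and no gene was called in both tissues with a called difference. Ehhadh, the first multifunctional enzyme of peroxisomal beta-oxidation, read 9.12, 9.10, 9.64, 9.16 and 9.82 in unexposed and 12.78, 12.31, 12.65, 13.02 and 12.58 in exposed liver. In lung it went from 5.03, 4.46, 4.68, 4.99 and 4.83 to 6.62, 7.45, 7.45, 7.60 and 8.14. Neither pair of groups overlapped. The change was 3.30 in liver and 2.66 in lung (adjusted p = 9.88e-07), a 6.30-fold rise in lung, with a difference of 0.65 (95% interval 0.04 to 1.26, adjusted p = 0.436).

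Cyp4a14, a fatty acid omega-hydroxylase, had the largest called lung change by estimate. Its unexposed lungs were near background, with 2 of 5 above the threshold, so the sizes of its lung change and difference are uncertain. It went from 3.08, 3.54, 3.61, 4.18 and 4.83 to 6.33, 7.55, 7.71, 7.38 and 8.27 in lung, a change of 3.60 (SE 0.32, adjusted p = 3.84e-06), and from a mean of 9.89 to 12.18 in liver, a change of 2.29. The difference was -1.30 (95% interval -2.25 to -0.36, adjusted p = 0.232). Acaa1b, a peroxisomal thiolase, changed by 2.46 in liver and 2.17 in lung, and Cyp4a12a, another omega-hydroxylase, by 1.72 and 1.53, the latter with 4 of 10 lung arrays above the threshold. For Angptl4, an inhibitor of lipoprotein lipase, the brighter probe set gave 0.79 in liver and 0.97 in lung, and the dimmer one 0.26 and -0.13.

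Fabp1, the fatty acid binding protein of liver, was called in lung alone among these, although its liver litters did not overlap either. Lungs went from 8.04, 5.94, 5.48, 7.23 and 6.83 to 7.54, 10.07, 9.73, 9.37 and 10.27, with exposed litter 1 inside the unexposed range, a change of 2.69 (SE 0.42, adjusted p = 0.0102). The lung call held in 30 of 33 alternative settings and was lost with a trended and robust variance (adjusted p = 0.077), without unexposed lung litter 2 (0.0548) and without exposed lung litter 5 (0.0514). Liver went from 12.15 to 12.61 up to 13.23 to 13.40, a change of 0.99 (adjusted p = 0.229), with a difference of -1.71 (95% interval -2.94 to -0.47, adjusted p = 0.231). Without exposed lung litter 1 the difference was -2.17 (adjusted p = 0.0171). The fit gives all groups 1 spread, which for Fabp1 is set by lung, with SDs of 1.02 and 1.09 against 0.18 and 0.07 in liver. Fabp1 and Slc27a3 lie outside the rule for named genes and are named because they complete the 9.

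**Figure D5:**
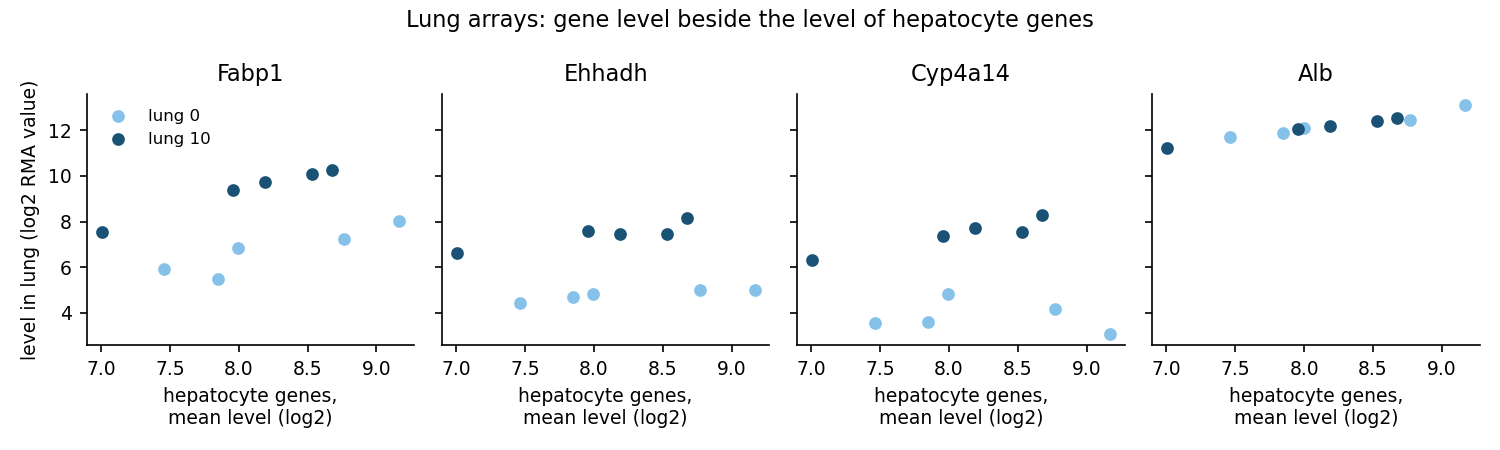
Level of Fabp1, Ehhadh, Cyp4a14 and Alb in the 10 lung arrays (vertical, log2) beside the mean level of 18 hepatocyte genes on the same array (horizontal, log2), pale for unexposed and dark for exposed litters. Exposed litters lie above unexposed ones of like hepatocyte level for Fabp1, Ehhadh and Cyp4a14 and not for Alb, and exposed litter 1 has the lowest hepatocyte level, 7.0.

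These genes were also set beside the hepatocyte level of the lung arrays. Exposed lung minus exposed liver was -5.22 for Ehhadh, -4.73 for Cyp4a14, -5.50 for Acaa1b, -6.17 for Cyp4a12a and -3.89 for Fabp1. For the 18 hepatocyte genes it had a median of -5.01 and ran from -6.09 to -1.65, a range that holds these genes except Cyp4a12a. Without PFOS, lung minus liver was -4.57 for Ehhadh, -6.04 for Cyp4a14, -5.21 for Acaa1b, -5.98 for Cyp4a12a and -5.60 for Fabp1. The hepatocyte genes then ran from -6.14 to -1.60, a range that holds them all. Hepatocyte genes themselves had a median lung change of -0.11, and their level overlapped between the lung groups. With that level as a covariate the lung change was 2.75 for Ehhadh, 3.66 for Cyp4a14 and 2.95 for Fabp1 (adjusted p = 2.98e-09, 1.33e-06 and 1.01e-09), and the difference of Fabp1, -1.96, became called (adjusted p = 2.67e-05). With cardiac muscle in place of hepatocyte level as the covariate, the lung changes were 2.44, 3.42 and 2.13 (adjusted p = 2.19e-06, 3.84e-05 and 0.0106). Whether the lung rise comes from hepatocyte transcripts in the lung samples or from lung cells was not tested.

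The promoter of Fabp1 is shown because, of the 6 lung-called genes with a listed promoter, only it held the direct repeat bound by PPARα with RXRα. The repeat was searched on both strands as the half-site AGGNCA, a base and the half-site again. The sequence comes from RefSeq (GRCm38.p6, chr6:71199629-71199928, plus strand, 250 bases before to 50 after the gene start). The match, which runs on the minus strand and starts at -67, is in capitals.
Fabp1 promoter: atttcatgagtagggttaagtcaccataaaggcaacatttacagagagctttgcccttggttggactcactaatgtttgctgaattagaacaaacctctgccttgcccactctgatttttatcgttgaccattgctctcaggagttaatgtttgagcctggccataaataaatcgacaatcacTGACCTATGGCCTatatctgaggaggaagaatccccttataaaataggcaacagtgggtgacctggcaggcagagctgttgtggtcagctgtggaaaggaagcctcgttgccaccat
The letters occur in 60 of the 14368 array genes with a listed promoter (0.42%) and in 1 of the 6 lung-called genes with one. In the class of 293 genes, none of the 157 higher in liver with a promoter held them, and 1 of the 74 lower did (1.35%). At a share of 0.42%, sets of this size cannot show a lack of the letters. A match is a description of these letters in this window only.

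Few genes moved in lung and not in liver. Lrp2, the endocytic receptor megalin, read 5.20 to 5.64 in unexposed and 4.60 to 4.80 in exposed lung and fell by 0.66 (adjusted p = 0.00393), with a liver change of 0.04 at a level under the threshold and a difference of 0.70 (adjusted p = 0.00668). Its dimmer probe sets had lung changes of -0.35 and 0.20, and the mean of all its probe sets gave no called lung change (-0.27, adjusted p = 0.607) and no called difference (0.40, adjusted p = 0.0959). With all 30 arrays neither its lung change (adjusted p = 0.0724) nor its difference (0.059) was called. Lrrn1, a leucine-rich repeat membrane protein, rose by 0.99 in lung (adjusted p = 0.0272), from a level under the threshold in both tissues. This lung call held in 22 of 33 alternative settings. Among the 33 are filters on dim probe sets at the 40th and 60th percentile, under which Lrrn1 was not tested. Its difference of -1.05 (adjusted p = 0.0223) lost its call without unexposed liver litters 2, 3 and 5 (-1.05, adjusted p = 0.138). Slc27a3, a fatty acid transport protein, fell by 0.45 in lung (adjusted p = 0.0423), and its difference of 0.27 was not called. Its lung call held in 14 of the 33 settings, and it was not tested under the filter at the 60th percentile.

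A further 12 genes had a called difference with neither tissue called. Tchh, the hair sheath protein trichohyalin, changed by 0.46 in liver and -0.53 in lung (difference 0.99, adjusted p = 0.015), but its liver level of 1.39 to 2.47 is far under the threshold. Lpar3, a receptor for lysophosphatidic acid, had 0.19 and -0.58 (difference 0.77, adjusted p = 0.0308), a call lost without any of 10 of the 20 arrays. Il18, a cytokine of the interleukin 1 family, was above the threshold in both tissues, at 6.94 to 7.46 in unexposed and 6.62 to 7.10 in exposed liver, and at 6.14 to 6.50 in unexposed and 6.59 to 6.81 in exposed lung. Its lung groups did not overlap and moved the other way from liver, with a difference of -0.72 (SE 0.15, adjusted p = 0.0117). Without unexposed liver litters 2, 3 and 5 the calls of Tchh, Lpar3 and Il18 were lost (adjusted p = 0.0656, 0.0749 and 0.0749). Their differences there were 1.07, 0.84 and -0.64. With the replicate number as a block the call of Tchh was lost (adjusted p = 0.0642). When the cardiac level of lung was in the fit, the calls of Lpar3 (0.0565), Lrrn1 (0.0508), Nr1i2 (0.073) and Abcg5 (0.0626) were lost.

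Before exposure Ppara was well above its lung level in liver, while Pparg was alike in the 2 tissues. Ppara read 10.31 to 10.52 in unexposed liver and 6.07 to 6.42 in unexposed lung, and lung minus liver was -4.18. Pparg had means of 4.64 and 4.59, Ppard of 5.40 and 5.80, and Rxra of 8.36 and 7.44 in liver and lung. Nr1i3, which encodes the chemical sensor CAR, had 6.95 and 3.86, with 4 of 10 lung arrays above the threshold. None of these 5 receptors had a called difference, and the intervals were -0.54 to 0.11 for Ppara, -0.55 to 0.12 for Pparg, -0.23 to 0.65 for Ppard, -0.26 to 0.21 for Rxra and -1.13 to 0.21 for Nr1i3. Ppargc1a, the coactivator PGC-1α, fell in liver by 0.79 (adjusted p = 0.0192) with overlapping litters and had a lung change of 0.26. Its difference of -1.05 (adjusted p = 0.0668) was called under 4 alternative settings. Its dimmer probe sets gave differences of -0.56, -1.08, -1.31 and -0.68, of which only -1.31 was called (adjusted p = 0.0329).

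Lists of tissue and cell identity were counted in the same way. None of 52 plasma protein genes, 18 hepatocyte genes, 19 surfactant and type 2 cell genes, 15 type 1 cell genes, 35 cell cycle genes or 26 erythroid genes had a called difference, beside 1.96% of all genes, and at that share lists of this length cannot show a lack of differences. The airway list had 2 lower of 22 (9.09%), one of them Cyp2f2, and the granulocyte list 1 lower of 19 (5.26%), beside 0.726% of all genes. Median differences were -0.05 for plasma proteins, 0.03 for hepatocyte genes, -0.01 for surfactant genes, -0.25 for cell cycle genes and -0.20 for erythroid genes, beside -0.02 over all genes.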

How the data were processed

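The authors deposited log2 values, 1 per probe set, made with RMA (background correction, normalization between arrays and summary over probes), per the submitters' processing notes. The version of RMA is not given in the sources used here, nor is whether liver and lung arrays were normalized in 1 batch. Levels of liver and lung are compared on this scale, and array means ran from 5.08 to 5.10. Of 45101 probe sets, 64 are controls, and 34945 carry 1 gene symbol in the platform annotation, 932 several and 9160 none. Probe sets with 1 symbol gave 18193 genes, each counted from whichever of its probe sets was brightest on average over the 20 arrays. limma 3.58.1 in R 4.3.3 fitted 1 mean per group, and its two-sided p-values, adjusted over 45037 probe sets (Benjamini-Hochberg), were called under 0.05. Of 851 entries in 35 gene lists, 781 matched a gene.

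Named genes were the largest called differences of each class and direction, up to 6 called members of each list, genes called in both tissues, in lung alone or in opposite directions, and a fixed set of receptors and PPARα targets, without clone names. The text gives a subset. Members, lists, rules and alternatives were chosen with earlier results of these data known. The labels do not say whether litters of different groups were processed together. Per the labels, the RNA used had integrity numbers of 8 or higher. The number of litters limits the precision. Alternatives were filters on dim probe sets, other normalizations, probe set rules, variance models, thresholds, covariates and samples, each tissue fitted on its own, and leaving out each array. Figures were drawn with matplotlib 3.10.9.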

Additional observations from a re-analysis of the deposited data

Results flagged for a closer look

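The test of the difference itself was called for 62 of the 75 genes named or described, beside 1.96% of all genes. Most of the 75 were named because their difference was called, so this count follows from the choice. Liver change minus lung change, on the log2 scale, was positive for Ces1f (3.48), Ces1g (2.76), Ces1e (2.47), Cxcl10 (2.22), Acot4 (2.20), Slc7a9 (1.86), Sgk2 (1.76), Nr1i2 (0.77), Acot2 (3.11), Acot1 (2.75), Acot3 (2.32), Aldh1a7 (2.68), Aldh1a1 (1.87), Lgals2 (2.27), Rnf186 (2.08), Aqp3 (2.00), Pltp (1.96), Abhd6 (1.90), Lepr (1.90), G0s2 (1.72), Hilpda (1.67), Me1 (1.66), Pdk4 (1.66), Vnn1 (1.63), Vldlr (1.25), Plin2 (1.14), Pex11a (1.40), Abcd3 (1.34), Crot (1.22), Hsd17b4 (0.80), Cpt2 (1.10), Slc22a5 (0.78), Slc25a20 (0.65), Eci1 (1.09), Decr1 (0.85), Lss (0.92), Hsd17b7 (0.76), Cyp51 (0.61), Gpam (0.84), Ephx1 (1.31), Ces1d (1.09), Lrp2 (0.70), Tchh (0.99) and Lpar3 (0.77). It was negative for Lrtm1 (-1.54), Acnat2 (-1.45), Plppr1 (-1.39), Hsd3b2 (-1.23), Abcg5 (-0.94), Fhad1 (-1.65), Cyp39a1 (-1.57), Cyp2f2 (-1.50), Enho (-1.34), Fst (-1.18), Il6ra (-1.14), Hsd11b1 (-1.07), Oxct1 (-0.64), Slc37a4 (-0.74), Gsta4 (-0.89), Lrrn1 (-1.05), Il18 (-0.72) and Wif1 (-2.16).

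A litter far from the other 4 of its group, by Dixon's test, was found 16 times in 300 groups of these genes, about what chance gives at 1 in 20 groups. In unexposed lung these were Hsd3b2 in litter 5 (2.64, others 3.15 to 3.34), Vnn1 in litter 3 (8.73, others 7.97 to 8.12), Pex11a in litter 1 (6.99, others 7.26 to 7.34), Abcd3 in litter 5 (9.66, others 9.45 to 9.49), Cyp51 in litter 1 (6.28, others 5.88 to 5.99), Lrp2 in litter 3 (5.64, others 5.20 to 5.31). In unexposed liver these were Aqp3 in litter 3 (4.98, others 5.30 to 5.32), Lss in litter 4 (8.97, others 9.26 to 9.34), Cyp51 in litter 5 (8.86, others 8.39 to 8.50), Enho in litter 1 (7.69, others 7.95 to 8.05), Slc27a3 in litter 1 (4.16, others 4.28 to 4.31). In exposed liver these were Vldlr in litter 4 (8.41, others 7.67 to 7.88), Pparg in litter 5 (4.21, others 4.56 to 4.65). In exposed lung these were Eci1 in litter 5 (8.25, others 7.55 to 7.64), Enho in litter 4 (5.73, others 6.03 to 6.10), Wif1 in litter 3 (4.56, others 6.03 to 6.28). Exposed lung litter 5, far out for Eci1, also had the highest cardiac muscle level of the lung arrays, 9.68.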

How the results depend on the processing

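Over 75 genes and the alternatives that gave a value, 2455 of 2540 results kept their direction and side of the threshold, 73 lost their call, 6 gained one and 6 turned. Those that turned were not called at any setting given here: Angptl4 at 0.10 with the mean of its probe sets, and Rxra at 0.011 with that mean, 0.061 without unexposed liver litters 2, 3 and 5, 0.0077 and 0.036 without litter 2 of unexposed or exposed liver, and 0.015 without litter 2 of unexposed lung (over all arrays left out in turn, -0.065 to 0.036). Genes lower in liver numbered 210 and 226 when only genes above the 40th or 60th percentile on at least 5 arrays were tested, which adjusts over fewer tests, and the genes called in liver and above the threshold in both tissues numbered 451 in the stricter case. Without unexposed liver litters 2, 3 and 5, lower genes were 58, genes not above the threshold in lung 17 and those above it in both 175, and 195 of the 357 genes were called again. With the threshold at the 60th percentile, genes not above it in lung were 57, as that setting's construction gives. Genes called in both tissues with a called difference were 2 with a trended and robust variance, 1 with all 30 arrays and 1 with the lung hepatocyte level as a covariate, against 0, and the cause was not tested. Leaving out 1 array gave 196 to 254 higher, 94 to 138 lower, 26 to 39 not above the threshold in lung, 237 to 311 above it in both and 6 to 12 called in lung, with no gene called in both tissues with a called difference at any array. The lowest count of lower genes came without exposed lung litter 1. With each tissue fitted on its own 5 genes were called in lung, and with the lung hepatocyte level as a covariate 23, against 9. The fit of each tissue on its own is not among the 33 settings counted above for single lung calls. With the replicate number as a block (replicate block) there were 201 higher and 121 lower genes, 34 not above the threshold in lung and 253 above it in both, and 278 of the 357 genes were called again. Same-numbered liver and lung arrays deviated together with r from 0.075 to 0.26, 9 of 10 over 0.1, and 10 of 10 liver and 9 of 10 lung arrays correlated best with their own number, across genes. Sex-linked genes also went by number. Eif2s3y was low in liver and lung of number 4 at 0 mg/kg/day (1.54 and 1.44). It was low too in number 1 at 10 mg/kg/day (1.27 and 1.56), and 5.33 to 7.06 elsewhere. Xist was 5.82 and 5.38 in number 1 at 0 mg/kg/day and 8.54 to 10.75 elsewhere. These are hints from the data that a number marks a litter, and the labels do not state it.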

Other observations

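Wif1, an inhibitor of Wnt signalling, was chosen for mention after its values were seen. It was above the threshold on all 10 lung arrays and on 3 of 10 liver arrays. Unexposed livers read 3.75, 4.59, 5.47, 4.83 and 4.20 and exposed livers 2.41, 2.60, 2.16, 2.31 and 2.47, so all exposed livers were under all unexposed ones. Lungs ran from 5.25 to 6.20 without and from 4.56 to 6.28 with PFOS. The liver change was -2.18 (SE 0.30, limma adjusted p = 5.56e-05), the lung change -0.01 (95% interval -0.63 to 0.61) and the difference -2.16 (SE 0.42, adjusted p = 0.00712). Without unexposed liver litters 2, 3 and 5 the difference was -1.88 (adjusted p = 0.074).

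The respiratory chain list had a median lung change of 0.12, with 39 of 42 genes positive, and a median liver change of 0.01. None of its genes was called in either tissue. With the cardiac muscle level of the lung arrays as a covariate its median lung change was 0.04.

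Of the probe sets with a called difference, 76 carry no single gene symbol in the annotation used and are not described here.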
